A study of Mus musculus with 4 samples.

Results

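The Notch receptors Notch1, Notch2 and Notch3, the ligands Dll1, Dll3, Jag1 and Jag2, the target genes Hes1 and Hes7, and the glycosyltransferase gene Lfng were followed through the transition of mouse embryonic stem cells (ESCs) to epiblast stem cells (EpiSCs). These 10 genes were chosen by name and were looked up by their Ensembl identifiers among the 37620 genes of the count table. All 10 were found there, and all 10 also passed the low-expression filter of the authors, which kept 15462 genes. The cells were R1 mouse ESCs of strain 129/Sv, either wild type (WT) or lacking Cripto, a membrane co-receptor of Nodal encoded by Tdgf1 (Cripto KO). Each genotype was sampled in serum/LIF, a medium with fetal bovine serum and leukaemia inhibitory factor that keeps ESCs undifferentiated, and after 6 days in F/A, which is N2B27 medium that contains Activin A (20 ng per ml) and basic FGF and into which ESCs were seeded sparsely. The study used a pair of independent ESC clones without Cripto, and which of them was sequenced is not given in the sources used here. There was 1 RNA-seq library for each of the 4 conditions, so no value has a replicate error, no test between conditions is possible and every difference is one between single cultures.

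Notch receptors are cleaved at the cell surface once a ligand of the Delta-like or Jagged family on a neighbouring cell binds them, and the released intracellular domain enters the nucleus, where it joins the DNA-binding factor RBPJ and Mastermind-like coactivators to switch on genes such as those of the Hes and Hey families. Fringe enzymes, of which Lfng encodes one, add a sugar to the extracellular repeats of the receptors and so bias them between the Delta-like and the Jagged ligands. Hes7 and Lfng are best known from the presomitic mesoderm, where their transcripts cycle with the segmentation clock, while in pluripotent cells Notch signalling is mainly linked to the exit towards neural and other fates.

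The libraries held between 15230856 and 17315442 counts on genes. Counts of Tdgf1, the gene targeted in Cripto KO cells, were 18714 in WT and 945 in Cripto KO cells in serum/LIF, and 1572 and 86 in F/A. Odd counts were found for 53.1% to 53.6% of the detected genes in the other libraries but for 3 genes (0.0160%) in F/A Cripto KO, so its counts were divided by 2 before any interval was computed. A gene was called higher or lower when the values quantile-normalized by the authors differed at least 2-fold and the 95% Clopper-Pearson interval of the ratio of its raw counts, scaled by the library totals, lay on the same side of 1. These intervals cover counting error only, and a ratio from normalized values can fall close to or just outside the interval of the scaled counts. In bulk RNA, fewer cells that express a gene and less RNA per cell cannot be told apart.

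Most of the Notch members rose in the ESC→EpiSC transition of both genotypes. In WT, 7 of the 10 members were called higher in F/A (Notch1, Notch2, Notch3, Dll1, Dll3, Jag1 and Lfng) and 0 lower, where 21.7% of all genes were called higher and 20.9% lower. In Cripto KO, 8 were called higher, the same 7 genes and Hes7, and 0 lower, where 18.8% of all genes were called higher and 18.9% lower. Hes7 reached the filter level of the authors in F/A Cripto KO alone, so it entered through the library in which it was high. Its call is therefore no independent support of a difference between the genotypes. The median log2 change of the members was 1.68 in WT and 1.29 in Cripto KO, against medians of -0.07 in both genotypes over all genes. The comparisons between genotypes further on use these same 4 libraries. The plot of normalized counts in the 4 libraries shows the members side by side.

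**Figure D1:**
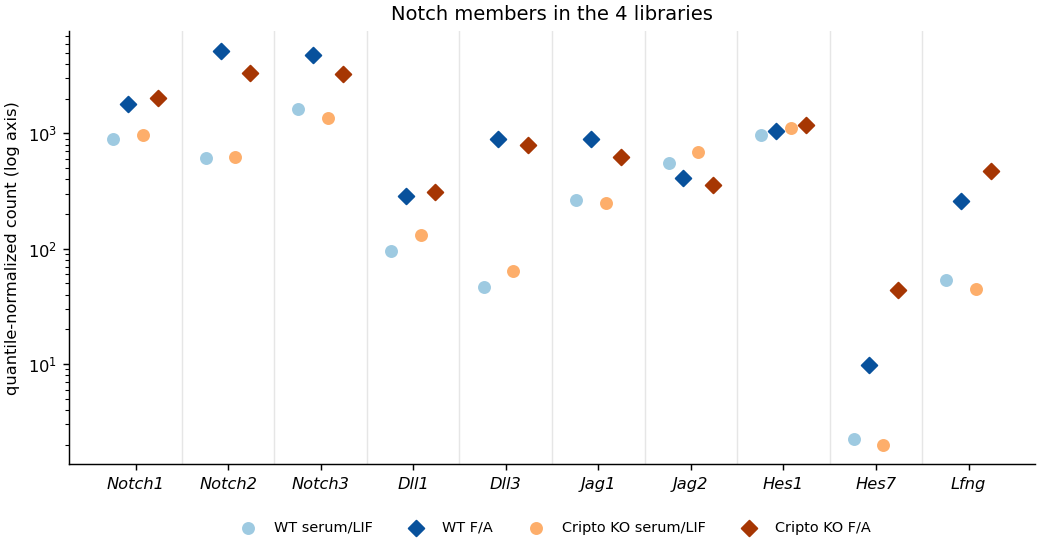
Quantile-normalized counts (log axis) of the 10 Notch members, with circles for serum/LIF and diamonds for F/A, blue for WT and orange to brown for Cripto KO, 1 library per point. Notch2, Dll3 and Lfng show wide gaps between media in both genotypes, Hes1 lies between 965 and 1181 throughout, and Hes7 stands lowest, at 2 to 44.3.

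Notch2, on mouse chromosome 3 (97817461 to 97954290 of NCBIM37, plus strand), was the receptor that rose most. It had 645 counts in WT and 613 in Cripto KO cells in serum/LIF, and 4976 and 3234 in F/A. Both F/A libraries lay far above both serum/LIF libraries, with a ratio between media of 8.40 in WT (counting interval 8.08 to 9.54) and 5.36 in Cripto KO (4.96 to 5.99).

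Notch3 (chromosome 17, 32257765 to 32303825, minus strand) had 1670 counts in WT and 1349 in Cripto KO cells in serum/LIF, and 4560 and 3166 in F/A. Its ratio between media was 2.96 in WT (2.93 to 3.29) and 2.41 in Cripto KO (2.25 to 2.61). Notch1 (chromosome 2, 26313423 to 26372183, minus strand) had 925 and 953 counts in serum/LIF and 1761 and 1962 in F/A, with WT given first. It sat on the edge of the 2-fold limit, at a ratio of 2.01 in WT (1.998 to 2.35) and 2.09 in Cripto KO (1.94 to 2.33).

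The receptors are encoded by long transcripts, and in WT the change between media moved with transcript length over all genes. The median log2 change of the eighth of genes with the shortest transcripts was -0.68 in WT, and that of the eighth with the longest was 0.64. In Cripto KO the same medians were -0.21 and 0.14. With the running median over length subtracted, the WT log2 changes were 2.31 for Notch2, 0.95 for Notch3 and 0.28 for Notch1, so that Notch3 and Notch1 lost their calls, while in Cripto KO they were 2.27, 1.17 and 0.93 and Notch1 alone of the receptors lost its call.

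Per length, the set of receptors present also changed. Expressed as counts per kilobase of exon scaled to the library total (cpm per kilobase), the summed level of Notch1 to Notch4 went from 20.8 in serum/LIF to 77.2 in F/A in WT, and from 20.2 to 53.7 in Cripto KO. Division by exon length, here and below, does not remove the trend of the changes with transcript length, which differed between the genotypes. Notch3 made up the greatest share in each library, 57.5% in serum/LIF and 48.2% in F/A in WT, and 51.0% and 46.6% in Cripto KO. Notch2 went from 17.01% to 40.3% of the sum in WT and from 17.8% to 36.4% in Cripto KO, whereas the share of Notch4 dropped from 7.46% to 0.929% and from 10.8% to 0.646%. In WT cells in serum/LIF the levels of Notch1 and Notch2 were near each other, at 3.75 and 3.55, and their order rests on the length used, since the exons of Notch1 cover 14232 bases while its longest transcript has 9488. Notch4, the receptor best known from endothelium, went the other way from the rest. It had 217 and 287 counts in serum/LIF and 88 and 44 in F/A, WT first, and was called lower in both genotypes, at log2 changes of -1.17 and -2.63.

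**Figure D2:**
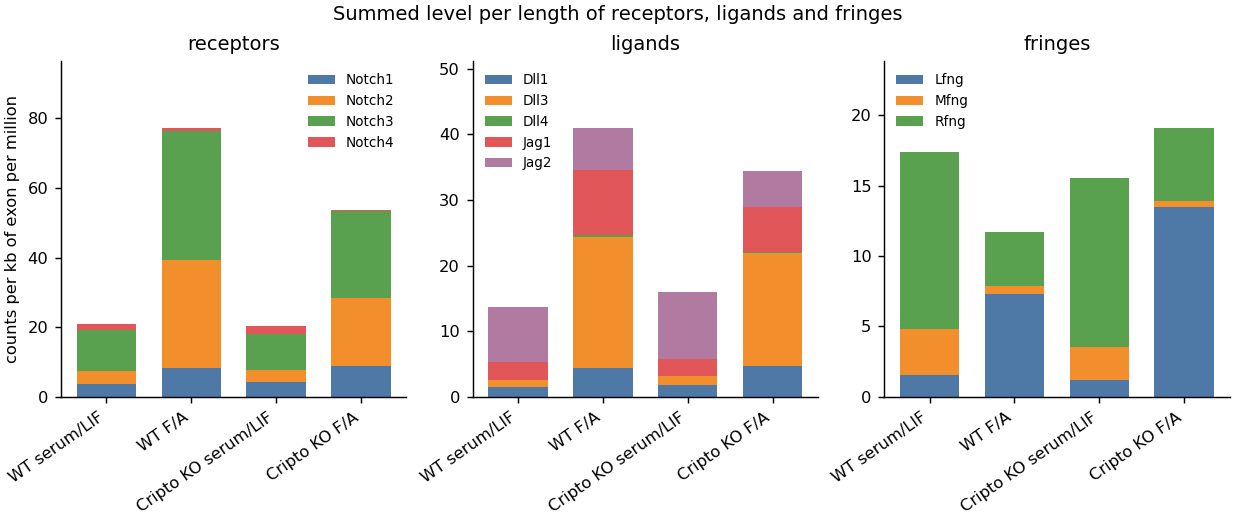
Stacked bars of cpm per kilobase of exon in the 4 libraries, for the receptors (left), the ligands with a DSL domain (middle) and the fringe enzymes (right), each panel with its own axis from 0. The receptor and ligand sums are higher in F/A in both genotypes, Notch2, Dll3 and Lfng widen, and Notch4, Mfng and Rfng shrink.

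Among the ligands, Dll3 showed the greatest change. Dll3 (chromosome 7, 29076673 to 29087257, minus strand) encodes a divergent Delta-like protein that acts mainly within the cell and is not known to activate receptors on neighbours. It had 54 counts in WT and 63 in Cripto KO cells in serum/LIF, and 874 and 786 in F/A. The ratio between media was 19.2 in WT (13.97 to 24.7) and 12.2 in Cripto KO (9.86 to 17.1), and the libraries of each medium lay close together.

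Jag1 (chromosome 2, 136907192 to 136942380, minus strand) had 281 and 237 counts in serum/LIF and 878 and 622 in F/A, WT first, a ratio of 3.41 in WT (3.10 to 4.08) and 2.47 in Cripto KO (2.28 to 3.22). Dll1 (chromosome 17, 15504318 to 15513836, minus strand), the Delta-like ligand of somite and neural progenitors, had 105 and 125 counts in serum/LIF and 280 and 308 in F/A. Its ratio was 2.997 in WT (2.41 to 3.83) and 2.32 in Cripto KO (1.997 to 3.25). Both ligands were thus higher in each F/A library than in either serum/LIF library.

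Jag2 (chromosome 12, 114146801 to 114167706, minus strand) was the single member with a log2 change below 0, and it was not called. Its counts were 582 and 674 in serum/LIF and 398 and 358 in F/A, WT first. The ratio of 0.745 in WT (0.683 to 0.885) and of 0.515 in Cripto KO (0.463 to 0.648) stayed short of 2-fold, although both intervals lay below 1. Dll4, the ligand of endothelial sprouting, had 3 counts in each serum/LIF library, 18 in WT F/A and 6 in F/A Cripto KO, the last being the detection limit of that library, and did not pass the filter.

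The make-up of the ligands per length changed accordingly. Jag2 held 60.8% of the summed ligand level in WT and 64.1% in Cripto KO cells in serum/LIF, and 15.7% and 16.3% in F/A. Dll3 went from 7.95% and 8.45% to 48.7% and 50.3%. The summed level itself was 13.6 in serum/LIF and 40.9 in F/A in WT, and 15.9 and 34.5 in Cripto KO, all in cpm per kilobase.

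Hes1, Hes7 and Lfng are genes that Notch signalling can induce. Hes1 hardly changed between media, whereas Lfng was called higher in both genotypes and Hes7 in Cripto KO only. Hes1 (chromosome 16, 30064470 to 30067882, plus strand), a transcriptional repressor that oscillates in ESCs, had 1000 counts in WT and 1088 in Cripto KO cells in serum/LIF, and 1023 and 1170 in F/A. Its ratio between media was 1.08 in WT (1.06 to 1.27) and 1.07 in Cripto KO (1.003 to 1.23). These were the smallest changes of any member, up or down, and no comparison called Hes1.

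Lfng (chromosome 5, 141083295 to 141091497, plus strand) had 61 counts in WT and 44 in Cripto KO cells in serum/LIF, and 255 and 484 in F/A. It rose 4.84-fold in WT (3.58 to 6.39) and 10.6-fold in Cripto KO (8.21 to 16.05). The other fringe genes went the opposite way, Mfng from 161 to 22 counts in WT and from 109 to 18 in Cripto KO, and Rfng from 543 to 147 and from 485 to 204, each called lower in both genotypes. Per length, Lfng accounted for 8.86% of the fringe sum in WT and 7.64% in Cripto KO cells in serum/LIF and for 62.6% and 70.6% in F/A, which replaced Rfng (72.3% and 77.2% in serum/LIF) as the main fringe transcript.

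Hes7 (chromosome 11, 68933906 to 68937557, plus strand), a repressor of the segmentation clock, was the scarcest member, with 3 counts in WT and 2 in Cripto KO cells in serum/LIF, at or under the detection limit of 3 counts, and 9 and 40 in F/A. Its ratio between media was 4.33 in WT, with an interval of 0.851 to 19.6 that includes 1, and 22.1 in Cripto KO, with an interval of 5.02 to 182. Hes7 was therefore called in the Cripto KO transition and not in that of WT, where it was called with the length trend removed and with the fold alone, and the intervals for its transitions overlapped. It also reached the filter level of the authors in F/A Cripto KO alone, the library in which it was highest. The antisense gene 9130213A22Rik shares exon sequence with Hes7 on the opposite strand and had 2 and 2 counts in serum/LIF and 9 and 38 in F/A, WT first. The strand setting of the counting is not given in the sources used here, so reads of Hes7 and of its antisense neighbour may not have been told apart, and the same holds for Notch1, Notch3 and Dll1, whose exons are also overlapped by antisense RNA genes.

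**Figure D3:**
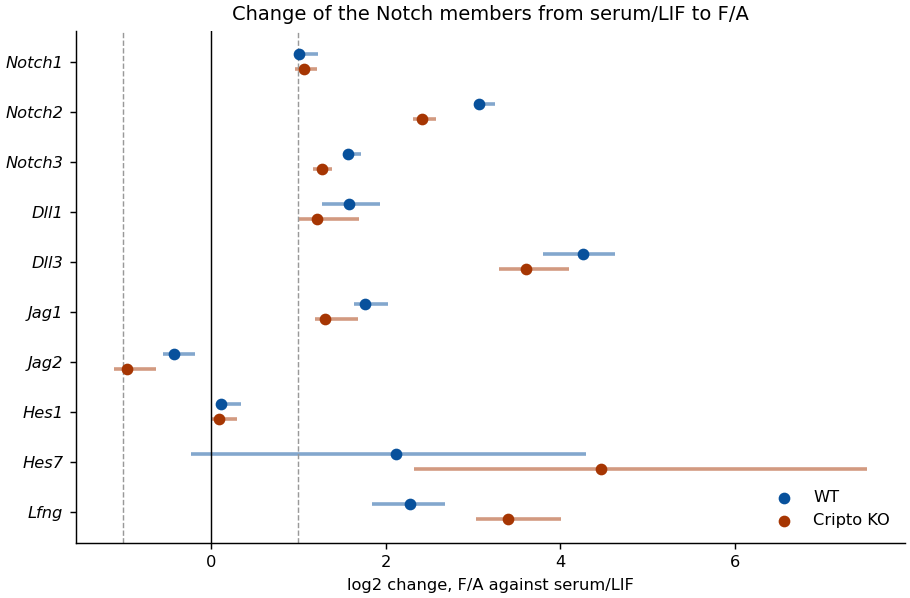
Log2 change of each member between serum/LIF and F/A in WT (blue) and Cripto KO (brown), where points are ratios of normalized values, bars are 95% counting intervals of scaled raw counts and dashed lines mark a 2-fold change. The WT point lies to the right of the Cripto KO point for Notch2, Notch3, Dll1, Dll3, Jag1 and Jag2 and to the left for Hes7 and Lfng, with a wide bar for Hes7.

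The promoters of Hes7 and Lfng are shown because these genes were the members higher in Cripto KO than in WT cells in F/A by the widest margins. The table of RefSeq promoter windows (GRCm38.p6, from 250 bases before to 50 after the start) held 10 windows for 9 of the 10 members, and Hes1 was not among them. Both strands were searched for TGGGAA, the core of the RBPJ site, for its longer form GTGGGAA, and for CACGNG, a sequence bound by Hes and Hey repressors. The longer form contains the core, so the 2 overlap by construction. The core was present in the windows of Hes7 and Lfng and of no other member, which is 2 of 10 windows, beside 25.6% of all 32851 windows. The longer form was found in the same 2 windows, beside 6.38% of all windows. In the upstream sequence printed here, 5′ to 3′ on the strand of the gene, capitals mark TGGGAA or its reverse complement.
Hes7, GRCm38.p6 chr11:69120203-69120452, plus strand: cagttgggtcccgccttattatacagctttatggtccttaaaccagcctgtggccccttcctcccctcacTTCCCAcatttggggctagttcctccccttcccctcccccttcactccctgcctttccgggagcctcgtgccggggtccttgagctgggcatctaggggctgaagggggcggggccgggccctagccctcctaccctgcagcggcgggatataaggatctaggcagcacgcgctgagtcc
Lfng, GRCm38.p6 chr5:140607091-140607340, plus strand: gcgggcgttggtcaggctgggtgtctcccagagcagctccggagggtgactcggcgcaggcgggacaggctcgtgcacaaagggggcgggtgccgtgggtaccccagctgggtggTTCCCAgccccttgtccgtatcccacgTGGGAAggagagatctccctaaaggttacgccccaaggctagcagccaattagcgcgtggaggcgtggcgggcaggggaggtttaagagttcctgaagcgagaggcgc
Hes7 carried 1 copy, on the opposite strand at positions -180 to -175 from the start, and Lfng carried 2, on the opposite strand at -135 to -130 and on the strand of the gene at -108 to -103. CACGNG was present in 8 of the 10 windows, those of Notch2, Notch3, Dll1, Jag1, Jag2, Hes7 and Lfng, beside 27.5% of all windows. These matches describe letters in a window, with no account taken of base composition, and no binding was measured.

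The genotype comparison in F/A asked how the members stood at the end of the transition when Cripto was missing. Of the 10 members, 1 was called higher in Cripto KO (Hes7) and 0 lower, where 2.93% of all genes were called higher and 4.08% lower. The ratio of Cripto KO to WT was 4.54 for Hes7 (1.87 to 10.7), from 9 and 40 counts. Hes7 reached the filter level of 1 cpm (counts scaled to the library total) in F/A Cripto KO alone, with 2.54 cpm there and 0.173, 0.591 and 0.123 cpm in WT serum/LIF, WT F/A and Cripto KO serum/LIF, so it entered the comparison through the library in which it was high and its call is no independent support of a difference. Lfng came next at 1.83 (1.53 to 2.20), short of 2-fold, from 255 and 484 counts. The median log2 ratio of the members was -0.04, against 0 over all genes.

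Notch2, Notch3 and Jag1 were lower in F/A Cripto KO than in WT F/A by less than 2-fold, with intervals below 1. The ratio was 0.648 for Notch2 (0.594 to 0.665), 0.689 for Notch3 (0.634 to 0.712) and 0.691 for Jag1 (0.6004 to 0.781). Dll3, at 0.886, had an interval of 0.771 to 0.981. The intervals of Notch1, Dll1, Jag2 and Hes1, with ratios between 0.857 and 1.13, included 1.

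Length again moved with these ratios. Over all genes the median log2 ratio of F/A Cripto KO to WT F/A was 0.37 in the eighth with the shortest transcripts and -0.39 in the eighth with the longest, and Notch2 and Notch3, with transcripts of 10506 and 8044 nucleotides, lay near the running median of genes of their length. With that median subtracted, their log2 ratios were -0.13 and -0.13, instead of -0.63 and -0.54, that of Jag1 was -0.32 and that of Notch1 was 0.64. Lfng and Hes7, with transcripts of 2282 and 1809 nucleotides, kept log2 ratios of 0.69 and 1.91.

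**Figure D4:**
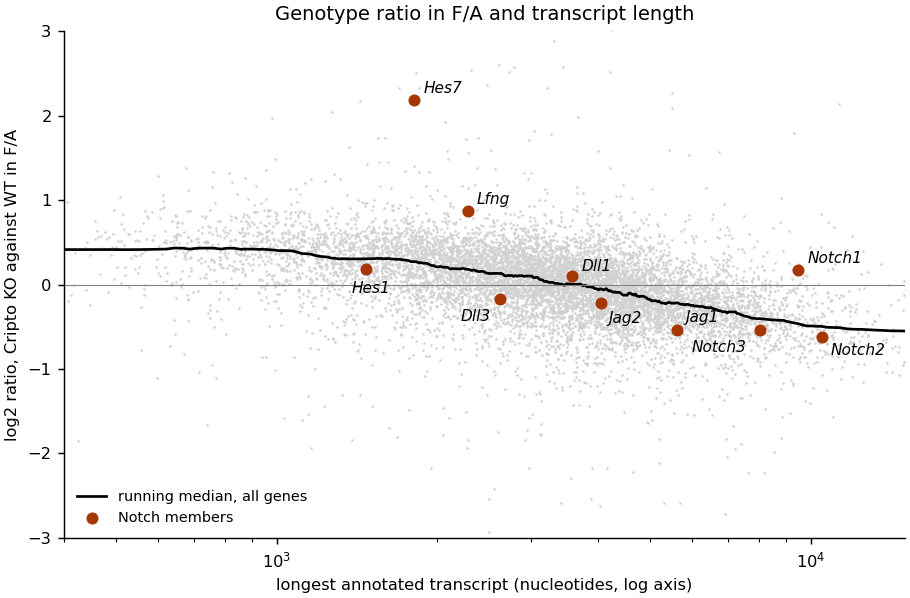
Log2 ratio of Cripto KO to WT in F/A against the longest annotated transcript of each gene (log axis), with grey points for genes with a mean normalized count of at least 200, a black line for their running median and brown points for the Notch members, the vertical axis being cut at -3 and 3. Notch2 and Notch3 lie close to the line, while Hes7, Lfng and Notch1 lie above it.

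The difference between the transitions, Cripto KO minus WT on the log2 scale, was positive for Lfng at 1.13, with a counting interval of 0.64 to 1.86 that excluded 0. It was negative with an interval that excluded 0 for Notch2 at -0.65 (-0.86 to -0.51), Notch3 at -0.30 (-0.49 to -0.22), Jag1 at -0.46 (-0.70 to -0.08) and Jag2 at -0.53 (-0.80 to -0.20). Hes7 had the greatest difference, 2.35, with an interval of -0.13 to 5.05. This difference moved with length as well, from a median of 0.46 in the eighth of genes with the shortest transcripts to -0.48 in that with the longest, and with the running medians subtracted it was -0.05 for Notch2, 0.22 for Notch3, -0.19 for Jag1, -0.39 for Jag2 and 0.92 for Lfng, while Notch1 went from 0.06 to 0.64 and Hes1 from -0.01 to -0.39.

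In serum/LIF none of the members was called between genotypes (0 of 10), where 1.36% of all genes were called higher and 1.97% lower in Cripto KO. The share of calls that were higher, 40.9% with the normalized values, was 29.7% with scaling by library totals, 31.7% with TMM factors and 31.8% with DESeq2 size factors. The log2 ratios of the members ran from -0.26 for Lfng to 0.48 for Dll3, with a median of 0.07 against 0 over all genes. Intervals that excluded 1 were found for Notch3, lower in Cripto KO at a ratio of 0.845 (0.800 to 0.925), and for Jag2, higher at 1.24 (1.10 to 1.38). They also excluded 1 narrowly for Hes1 at 1.14 (1.06 to 1.26) and for Notch1 at 1.09 (1.001 to 1.20).

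Of the 48 further genes listed for the pathway, 45 passed the filter. In the WT transition 17 were called higher and 8 lower, in that of Cripto KO 16 and 7, between genotypes in F/A 2 higher and 3 lower, and in serum/LIF 0 in either direction. Over all genes the shares called higher and lower were 21.7% and 20.9% in WT and 18.8% and 18.9% in Cripto KO, and 2.93% and 4.08% between genotypes in F/A, so that several of these counts lay near them. Among the targets, 3 of the 5 that passed the filter rose in WT and 4 in Cripto KO. Nrarp, which encodes a feedback inhibitor of Notch signalling, rose from 69 to 303 counts in WT and from 43 to 326 in Cripto KO. Hey1, a repressor related to the Hes proteins, went from 80 to 117 counts in WT, where it was not called at a log2 change of 0.73, and rose from 44 to 224 in Cripto KO, at 2.31. Heyl was called higher in both transitions and in F/A Cripto KO against WT F/A from few counts, 1 and 1 in serum/LIF and 12 and 46 in F/A, WT first, with a genotype ratio in F/A of 3.87 (1.77 to 8.18). Like Hes7, it was above 1 cpm in F/A Cripto KO alone, at 2.92 cpm, and so was the ligand-like gene Dlk2, at 1.52 cpm. The counts of calls in this paragraph include Heyl in both transitions and between genotypes in F/A, and Dlk2 in the Cripto KO transition. Both genes entered through the library in which they were high, so their calls are no independent support of a difference.

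The nuclear partners of the receptors did not share a direction. Maml3, a Mastermind-like coactivator, went from 18 to 1882 counts in WT, the widest change of the pathway in that genotype, and from 25 to 1352 in Cripto KO, at log2 changes of 7.03 and 5.75. In Cripto KO the log2 change of Heyl was 6.07, from 1 count in serum/LIF, under the detection limit, and 46 in F/A. The counting interval of its ratio, 7.72 to 1957.5, is too wide to rank it against Maml3. Maml1 and Maml2 rose as well, in both genotypes. Rbpj, the DNA-binding factor itself, fell from 6135 to 2595 counts in WT and from 5606 to 2336 in Cripto KO, at log2 changes of -1.13 and -1.20. Of the 8 genes of this list, 4 were called higher and 1 lower in WT, and 3 higher and 2 lower in Cripto KO, where the corepressor gene Spen fell at -1.32. The shares over all genes were 21.7% and 20.9% in WT and 18.8% and 18.9% in Cripto KO.

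Genes for receptor maturation, cleavage and ligand uptake numbered 18, of which 6 were called higher and 5 lower in WT, and 5 and 3 in Cripto KO, beside shares over all genes of 21.7% and 20.9% in WT and 18.8% and 18.9% in Cripto KO. Furin, the convertase that cleaves the receptor precursor, rose from 342 to 1572 counts in WT and from 359 to 1426 in Cripto KO. Mib1, the ubiquitin ligase that drives ligand endocytosis, rose from 977 to 3217 and from 994 to 2652. The gamma-secretase genes differed among themselves. Aph1b was called higher in both genotypes, at log2 changes of 2.35 and 2.57, Aph1c was called higher in WT, at 2.13, and lower in F/A Cripto KO than in WT F/A, at -1.25, and Psenen was called lower in WT, at -1.20, while Ncstn and Aph1a, between 0.11 and 0.59, were not called in either genotype.

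Among the ligands without the receptor-binding DSL domain, Dlk1 alone was called between genotypes in F/A, and its difference was the widest of the pathway. Dlk1, an imprinted gene whose protein can dampen Notch signalling, had 137 counts in WT and 124 in Cripto KO cells in serum/LIF, 105 in WT F/A and 3098 in F/A Cripto KO. That single library stood above the other three, at a ratio of 30 to WT F/A (23.4 to 35.1). Dner, a neural ligand-like gene, rose in both genotypes, from 22 to 157 and from 23 to 140 counts.

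Of the 10 genes for endocytosis and turnover, 3 were called higher and 1 lower in WT, and 1 higher and 1 lower in Cripto KO, beside shares over all genes of 21.7% and 20.9% in WT and 18.8% and 18.9% in Cripto KO. The Deltex gene Dtx4 rose in both genotypes, from 48 to 484 counts in WT and from 62 to 458 in Cripto KO. Its relatives Dtx1 and Dtx3l were called lower in F/A Cripto KO than in WT F/A, with 84 against 207 counts and 334 against 866.

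**Figure D5:**
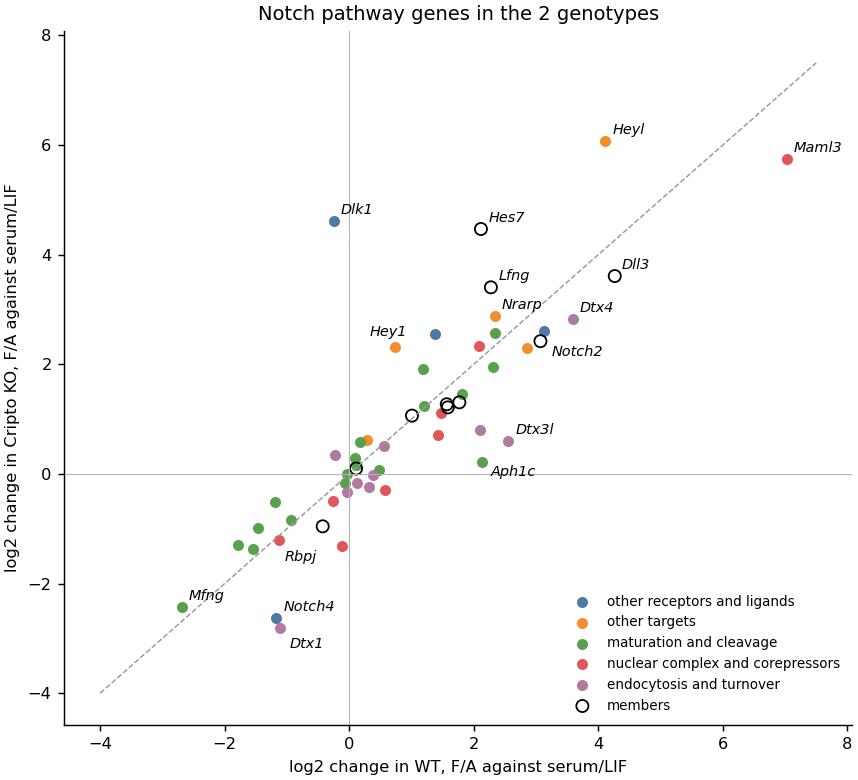
Log2 change between serum/LIF and F/A, in WT (horizontal) and in Cripto KO (vertical), for the genes of the Notch pathway that passed the filter, coloured by list, with members as open circles and a dashed line where both changes are equal. Of 55 genes, 42 lie within 1 of the line, 6 (Dlk1, Hes7, Heyl, Hey1, Dlk2 and Lfng) lie at least 1 above it, and 7 (Dtx3l, Aph1c, Dtx1, Notch4, Aak1, Maml3 and Spen) lie at least 1 below it. Hes7, Heyl and Dlk2 were above 1 cpm in F/A Cripto KO alone (2.54, 2.92 and 1.52 cpm). They entered the plot through the library in which they were high, so their place above the line is no independent support of a difference.

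Markers of several cell types moved between the same libraries. The summed level of 6 naive pluripotency genes went from 3575 to 29.5 cpm in WT and from 3196 to 46.2 in Cripto KO. The primed epiblast list went from 169 to 1196 in WT and from 185 to 633 in Cripto KO. Markers of presomitic mesoderm, the tissue in which Hes7 and Lfng cycle, summed to 41.4 in WT and 46.2 in Cripto KO cells in serum/LIF and to 38.1 and 127 in F/A. Of the 9 genes of this list that passed the filter, 5 were called higher in Cripto KO cells in F/A (Aldh1a2, Meox1, Tcf15, Wnt3a and Ripply1) and 1 lower (Tbx6), with a median log2 ratio of 1.72. In this comparison 2.93% of all genes were called higher and 4.08% lower. Aldh1a2 had 1080 against 319 counts, Meox1 582 against 42, Tcf15 150 against 37 and Tbx6 22 against 52, and Ripply2 had at most 1 count in any library. From serum/LIF to F/A, however, Tcf15 and Ripply1 were called lower in both genotypes, so they had fallen less far in Cripto KO. Aldh1a2 and Meox1 were called higher in both transitions, Wnt3a in that of Cripto KO alone and Tbx6 in that of WT alone. The fibroblast list summed to 255 in F/A Cripto KO and to between 96.0 and 101 in the other libraries. The endothelial list summed to 53.6 in F/A Cripto KO and 30.5 in WT F/A, mainly from Kdr, with Emcn at 0 in each library, and the trophoblast list to 246 and 215. Within the trophoblast list Cdx2 and Hand1 were called higher in F/A Cripto KO, with 674 against 104 and 1730 against 196 counts, and Eomes lower, with 422 against 1963. In the primitive endoderm list, which summed to 284 and 225 in F/A, Afp was at 0 throughout, and of the 9 neural markers measured 2 were above the detection limit in F/A Cripto KO and 3 in WT F/A. The part of these cell types in the levels of the Notch members was not tested.

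Genes with a like pattern over the 4 libraries were found for the members of widest range, from the Euclidean distance between log2 values centred on each gene, among 12380 genes. Hes7 was followed by Gpr124, an adhesion receptor gene, and Twist2, at distances of 0.16 and 0.27. Gpr124 had 98, 404, 77 and 1950 counts in WT serum/LIF, WT F/A, Cripto KO serum/LIF and F/A Cripto KO, in that order. Lfng was followed by Bin1, Rftn1 and Adamts20 at 0.18, 0.27 and 0.28, and Dll3 by the surface antigen gene Cd24a, the phosphatase gene Dusp4 and Rnf43 at 0.08, 0.08 and 0.20. With 4 libraries such likeness is easily met, and 46 genes lay within a distance of 0.5 of Dll3, 41 of Lfng and 5 of Hes7. The pattern of Hes7 rests on 3 and 2 counts in serum/LIF, at or under the detection limit, and 9 and 40 in F/A, WT first. Its distances and its number of near genes are therefore less certain than those of Dll3 and Lfng.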

How the data were processed

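RNA of 4 cultures was sequenced as paired-end reads on the Illumina HiSeq platform, 1 library per condition. The authors used TopHat2 2.0.13 for the alignment to mouse build NCBIM37 (mm9), assigned reads to the genes of Ensembl 67 with HTSeq 0.6.1p1 and deposited raw counts. The authors also deposited a signal made from these counts, full quantile-normalized values of the genes that passed a filter at 1 cpm. Symbols, positions and lengths came from an annotation of the same build (Ensembl 65), which named 98.9% of the genes. Length is that of the longest transcript, and of the exon union for levels per length. Log2 changes used normalized values with 0 replaced by 0.5. Calls needed a fold of at least 2 and a 95% Clopper-Pearson interval on the same side of 1, with counts of F/A Cripto KO halved. The detection limit was 3 counts, and 6 in F/A Cripto KO. The NOISeq-sim probabilities of the study were not used, since they rest on resampling single libraries. All 15462 filtered genes entered each comparison. The running median over length used windows of 501 genes.

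Members, lists and settings were chosen with earlier results of these data known. Besides the 10 members, all genes of the marker lists could be named, up to 3 called genes per Notch list and comparison with the largest log2 change and at least 100 counts, and the 3 genes most like each of the 3 members of widest range, of which 1 is not reported here. Dll4, Dlk2, Heyl, Rfng, Rbpj, Aph1b, Aph1c, Psenen, Ncstn and Aph1a were named after their values were seen. Alternatives were scaling by library totals, TMM factors of edgeR 4.0.16, DESeq2 1.42.0 size factors, 5 added to every value, a fold of at least 3, the fold alone, a mean of at least 50 counts, no filter, the length trend removed, and halving before normalization. Calls and intervals were tested on simulated data (Python 3.11.15, numpy 2.4.6, scipy 1.17.1, pandas 2.3.3).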

Additional observations from a re-analysis of the deposited data

Results flagged for a closer look

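Dtx1 and Dtx3l were the genes of the Notch pathway with counting intervals of the genotype ratio on opposite sides of 1 in the 2 media and a ratio of at least 2-fold in one of them. Each ratio rests on single libraries, and the difference between media was not tested. The log2 ratio of Cripto KO to WT for Dtx1 was -1.27 in F/A, from 207 counts in WT and 84 in Cripto KO, and 0.44 in serum/LIF, from 480 and 605. For Dtx3l it was -1.41 in F/A, from 866 and 334 counts, and 0.55 in serum/LIF, from 161 and 209. Notch4 (-0.89 in F/A and 0.57 in serum/LIF) and Spen (-0.77 and 0.43) also had intervals on opposite sides of 1, with ratios short of 2-fold, and Aph1c (-1.25 and 0.65) had an interval in serum/LIF that included 1.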

How the results depend on the processing

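With 1 library per condition, neither leaving out a library nor a paired analysis was possible. With a fold of at least 3, 4 members were called in the WT transition instead of 7, 4 in the Cripto KO transition instead of 8, 15 other pathway genes in the WT transition instead of 25, and 2 in F/A Cripto KO against WT F/A instead of 5. With a mean of at least 50 counts, 0 members were called between genotypes in F/A instead of 1, since Hes7 was removed, and 3 other pathway genes instead of 5. With the fold alone, 1 other pathway gene was called between genotypes in serum/LIF instead of 0. Under these alternatives 37 of 40 counts of members and 36 of 40 counts of pathway genes stayed within 1.5 times the reported count. Of 40 log2 changes of members, 38 kept their sign under every alternative, and those of Hes1 between genotypes in F/A (-0.13) and of Notch2 between genotypes in serum/LIF (-0.12) changed sign with the length trend removed. The difference of the transitions changed sign for Notch3 with the length trend removed (0.22), and for Notch1 with scaling by library totals, TMM factors and DESeq2 size factors. Depth limits Hes7 most, whose counts in serum/LIF were at or under the detection limit.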
